A study of Sus scrofa with 41 samples.

Results

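The genes described here are PPARA and 9 genes of muscle fatty acid oxidation, namely CPT1B, CPT2, ACADVL, ACADL, ACADM, HADHA, HADHB, PDK4 and UCP3. They were chosen by their pig Ensembl symbols, and all 10 were found among the 25880 genes counted in every pig. Expression was measured by RNA-seq in the psoas major, a loin muscle, of 41 uncastrated male pigs that grew up on 1 breeding station and were slaughtered at about 100 kg. The pigs were purebred, 13 Danbred Duroc and 28 Danbred Landrace, and received no treatment. Feed intake and growth were recorded individually from about 28 kg, and the feed conversion ratio (FCR) values lie near 2, so they are read here as feed eaten per weight gained, with a low value for an efficient pig. The methods of the study word the ratio as growth over feed, but its introduction gives it as feed over growth, which is the reading kept here. Its results link a lower FCR to higher efficiency but also state that pigs of low FCR needed more days to reach 100 kg. FCR ran from 1.83 to 2.18 in Duroc (median 1.94) and from 1.92 to 2.25 in Landrace (median 2.1). Duroc were 131 to 156 days old at slaughter and Landrace 147 to 166 days.

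PPARA is a nuclear receptor that is switched on by fatty acids and that raises the transcription of genes for their uptake and breakdown, in partnership with a retinoid X receptor. Long-chain fatty acids enter the mitochondrion as carnitine esters, made by CPT1B at the outer membrane and undone by CPT2 at the inner membrane. Inside, acyl-CoA dehydrogenases of different chain-length preference (ACADVL, ACADL and ACADM) and the trifunctional protein (HADHA and HADHB) shorten the chain cycle by cycle. PDK4 phosphorylates pyruvate dehydrogenase and so holds back the entry of glucose carbon, and UCP3 is a carrier of the inner membrane of skeletal muscle mitochondria. Several of the 10 are classical PPAR targets.

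In RefSeq on the Sscrofa11.1 build, PPARA lies at chr5:3302755-3321091 and CPT1B at chr5:155552-163536. CPT2 lies at chr6:159038129-159061327 and ACADM at chr6:137541481-137575544. HADHB at chr3:112712894-112753121 and HADHA at chr3:112753343-112797627 are next to each other. PDK4 lies at chr9:75246956-75260134, UCP3 at chr9:8378023-8389452, ACADL at chr15:112935631-112969381 and ACADVL at chr12:52573521-52581755. The counts make no use of strand, and a read pair that falls on more than 1 gene is counted for none. ACADVL lost between 28.6% and 62.7% of its pairs in this way (median 36.2%) to a gene on the other strand, HADHB a median of 7.03% and HADHA 4.91%, whereas the other 7 genes lost none.

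Between 22188911 and 25954816 read pairs per pig (median 25243577) were counted on a gene, 69.9% to 80.9% of the pairs recorded for that pig. Levels are given as CPM, counts scaled to the size of the library, after TMM normalization, and a difference is given on the log2 scale. PPARA was counted sparsely, with 8 to 190 read pairs per pig, so its values carry more counting error than those of the other members, whose lowest count was 376 in CPT2. Levels are compared between pigs and not between genes, because gene length was not taken into account. The muscle markers matched the tissue, with summed levels of 6 fast-fibre markers of 26467 to 57887 CPM and of 6 slow-fibre markers of 1644 to 21171 CPM over the pigs. The pigs belonged to 5 slaughter batches of 1, 15, 9, 5 and 11 animals, and batch 1 was a single Duroc. Duroc replicate 10 (RNA integrity number, RIN, 7.0) and Landrace replicate 27 (RIN 6.6) had the lowest totals of counted pairs. Of their recorded pairs, 71.1% and 69.9% were counted on a gene.

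The first question was whether the 2 breeds differ in these genes. In the joint model, which holds FCR, RIN, age, breed and batch together, 6 of the 10 genes were lower in Landrace than in Duroc at a false discovery rate (FDR) under 0.1, and none was higher. Over all 11146 genes tested, 33.1% were called for breed and 17.5% were called lower in Landrace. The 6 were PPARA, both carnitine palmitoyltransferases, ACADVL and both subunits of the trifunctional protein. The median breed difference of the 10 genes was -0.51, against -0.0024 over all genes tested.

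PPARA ranged from 1.46 to 6.23 CPM in Duroc (median 3.42) and from 0.555 to 5.32 CPM in Landrace (median 2.58). The breeds overlapped widely, although 23 of 28 Landrace pigs lay below the Duroc median and 2 Duroc pigs lay above every Landrace pig. The raw mean difference was -0.43 and the adjusted difference -0.66 (SE 0.214, edgeR FDR = 0.0217). With FCR and age taken out of the model it was -0.26 and not called (edgeR FDR = 0.315), so the call rests on the adjustment for them.

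CPT1B, the muscle form of the enzyme that commits fatty acids to the mitochondrion, ranged from 64.8 to 154 CPM in Duroc (median 83.1) and from 29.6 to 114 CPM in Landrace (median 71.2). Of the Landrace pigs, 13 lay below every Duroc pig, and the adjusted difference was -0.58 (SE 0.170, edgeR FDR = 0.0112). CPT2, its partner at the inner membrane, ranged from 15.5 to 40.4 CPM in Duroc (median 27.5) and from 15.5 to 54.5 CPM in Landrace (median 25.5). For CPT2 the breeds overlapped over nearly their whole range, with the highest pig of all a Landrace and the lowest a Duroc. Its raw mean difference was only -0.15, and the call rests on the adjustment, which gave -0.50 (SE 0.199, edgeR FDR = 0.0593).

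ACADVL, which opens the cycle for very long chains, ranged from 102 to 186 CPM in Duroc (median 141) and from 61.5 to 189 CPM in Landrace (median 103). All but 2 of the 28 Landrace pigs lay below the Duroc median, 14 of them below every Duroc pig, and the adjusted difference was -0.58 (SE 0.159, edgeR FDR = 0.0073). With every shared read pair given to ACADVL, also those that may stem from the gene on the other strand, the difference was -0.62 (edgeR FDR = 0.0031). ACADL, the long-chain enzyme, ranged from 30.5 to 77.0 CPM in Duroc (median 65.2) and from 40.3 to 115 CPM in Landrace (median 60.6), with an adjusted difference of 0.02 (SE 0.174, edgeR FDR = 0.949). ACADM, the medium-chain enzyme, ranged from 130 to 196 CPM in Duroc (median 162) and from 79.9 to 272 CPM in Landrace (median 159), with an adjusted difference of -0.12 (SE 0.156, edgeR FDR = 0.624). The medians lay close together in both genes. For ACADM, Landrace pigs lay both above and below all Duroc pigs, whereas for ACADL 5 Landrace pigs lay above every Duroc pig and the lowest pig was a Duroc.

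HADHA, the subunit with the hydratase and hydroxyacyl-CoA dehydrogenase activities, ranged from 221 to 433 CPM in Duroc (median 281) and from 144 to 398 CPM in Landrace (median 219). HADHB, the thiolase subunit, ranged from 127 to 244 CPM in Duroc (median 172) and from 85.6 to 219 CPM in Landrace (median 124). Below every Duroc pig lay 15 Landrace pigs in HADHA and 16 in HADHB. The adjusted differences were -0.36 (SE 0.121, edgeR FDR = 0.0251) for HADHA and -0.61 (SE 0.147, edgeR FDR = 0.0030) for HADHB, the lowest FDR of the 10 genes.

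PDK4 ranged from 538 to 1966 CPM in Duroc (median 1089) and from 350 to 2112 CPM in Landrace (median 1078), and the breeds could not be separated (0.28, SE 0.293, edgeR FDR = 0.522). UCP3 ranged from 71.0 to 191 CPM in Duroc (median 112) and from 13.6 to 126 CPM in Landrace (median 68.2). UCP3 had the largest raw mean difference of the 10 genes at -0.83, with 25 of 28 Landrace pigs below the Duroc median and 5 Duroc pigs above all Landrace pigs. After adjustment the difference was -0.53 with a wide error (SE 0.314, edgeR FDR = 0.222), so UCP3 was not called.

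**Figure D1:**
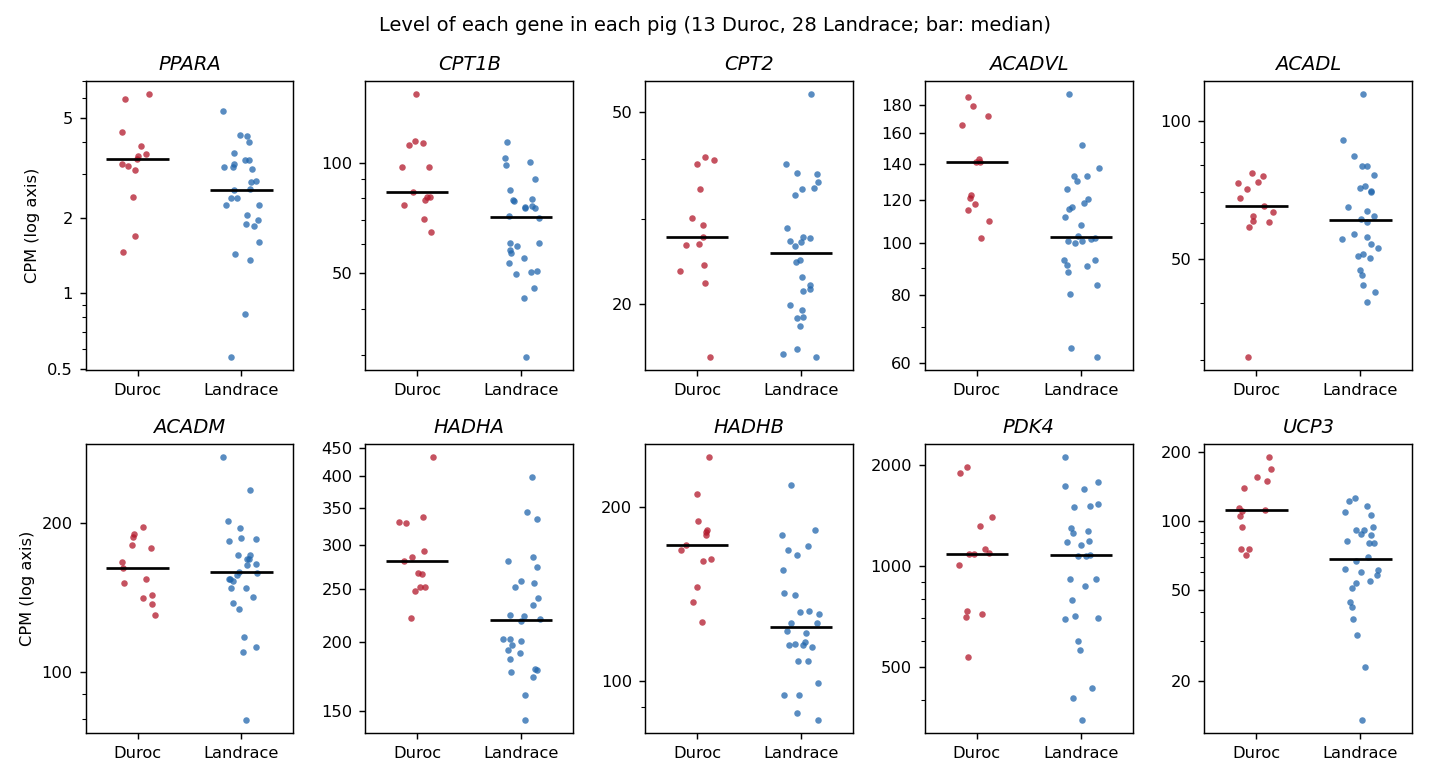
Level of each of the 10 genes in each pig, in CPM on a log axis, with 13 Duroc and 28 Landrace pigs as points and the median of each breed as a bar. Landrace medians lie clearly below Duroc medians in PPARA, ACADVL, HADHA, HADHB and UCP3, and close to them in ACADM, ACADL and PDK4.

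Within the 4 batches that held both breeds, the Landrace mean was lower in all 4 for PPARA, CPT1B, ACADVL, HADHA, HADHB, PDK4 and UCP3. Batches 2 to 5 held 3, 2, 3 and 4 Duroc and 12, 7, 2 and 7 Landrace pigs, so each mean rests on few pigs of at least 1 breed. The means were not adjusted for RIN. The differences ran from -0.79 to -0.21 for PPARA, from -0.95 to -0.09 for CPT1B, from -0.58 to -0.09 for HADHA, from -0.92 to -0.11 for ACADVL and from -0.75 to -0.27 for HADHB. For UCP3, which the joint model did not call, they ran from -1.01 to -0.68. For PDK4 they ran from -0.27 to -0.0062, whereas its adjusted difference had the other sign (0.28). CPT2 was lower in 3 batches, ACADL in 2 and ACADM in 1.

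Markers of fibre types and other cells were fitted in the same model, in which 33.1% of all genes were called for breed. Of the 6 fast-fibre markers tested 5 were higher in Landrace, and of the 6 slow-fibre markers 2 were lower (TNNI1 -0.79, edgeR FDR = 0.0514, and ATP2A2 -0.73, edgeR FDR = 0.0903). All 3 endothelial markers tested were lower in Landrace, KDR by -1.48, PECAM1 by -1.01 and CDH5 by -0.95 (edgeR FDR = 9.52e-06, 0.0030 and 3.68e-05). Their summed level ran from 44.8 to 174 CPM in Duroc and from 23.8 to 138 CPM in Landrace, and that of the slow-fibre markers from 4936 to 13651 CPM in Duroc and from 1644 to 21171 CPM in Landrace. In bulk muscle, fewer cells of a type and less RNA per cell cannot be told apart. Of the adipocyte markers 3 of 7 could be tested and ADIPOQ was lower (-2.67, edgeR FDR = 0.0451), while PLIN4 and FABP4 were not called (0.35 and 0.25). Further, 1 of 8 leukocyte markers (CSF1R) and 1 of 5 connective tissue markers (PDGFRA) were lower.

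The breed calls depended in part on what stood beside breed in the model. With a slow-fibre score added, CPT2 (-0.18, edgeR FDR = 0.462) and HADHA (-0.23, edgeR FDR = 0.167) were no longer called, and the HADHB, ACADVL, CPT1B and PPARA calls held. With an endothelial score added, 5 of the 6 calls were lost and CPT1B alone was kept (-0.71, edgeR FDR = 0.0932). In that fit the calls over all genes fell from 3692 to 747. The differences that lost their call stayed near their size or grew, as that for HADHA was -0.48 (edgeR FDR = 0.108), for CPT2 -0.50 (edgeR FDR = 0.335), for HADHB -0.55 (edgeR FDR = 0.139), for ACADVL -0.56 (edgeR FDR = 0.167) and for PPARA -0.66 (edgeR FDR = 0.248). Whether vessel or fibre content has a part in the breed differences was not tested.

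Leaving out single pigs, the CPT2 call was lost without Duroc replicate 1 or 3 or Landrace replicate 8, 10 or 14, the HADHA call was lost without Duroc replicate 3, and the other 4 calls were kept in all 41 refits. With FCR and age taken out of the model, CPT2 (-0.27, edgeR FDR = 0.179), like PPARA, was no longer called and UCP3 was (-0.64, edgeR FDR = 0.0265).

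**Figure D2:**
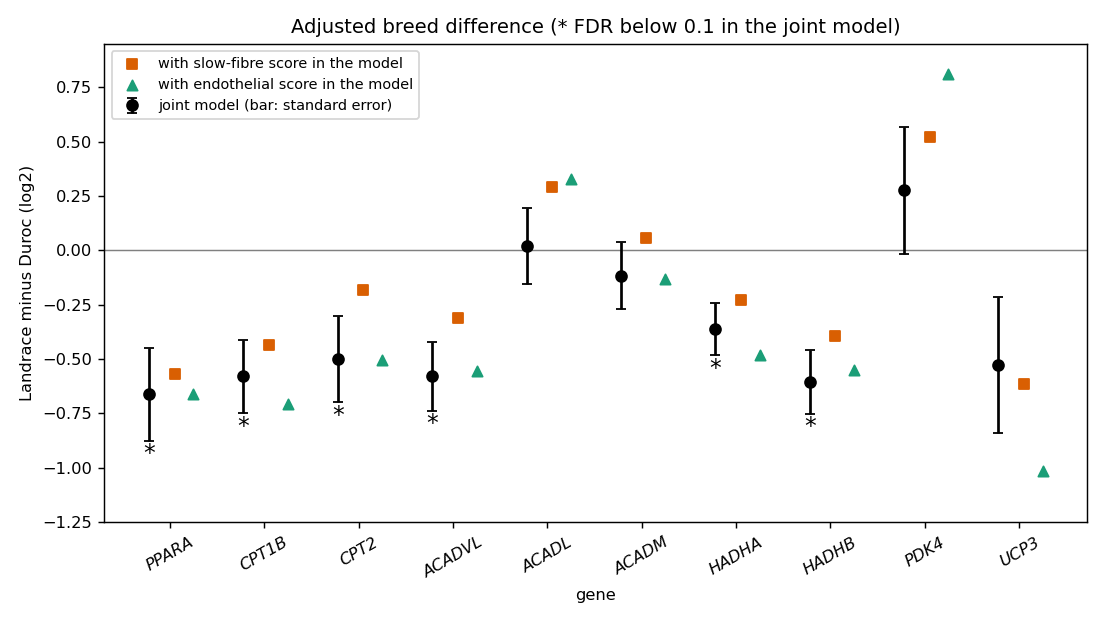
Adjusted log2 difference, Landrace minus Duroc, for each of the 10 genes, from the joint model (black points, bars are standard errors), with a slow-fibre score added (squares) and with an endothelial score added (triangles). The 6 genes with an asterisk had an FDR under 0.1 in the joint model, and squares lie nearer to 0 than the black points for all 6.

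RIN, a measure of how intact the RNA was, ran from 7.0 to 8.8 in Duroc and from 6.5 to 8.3 in Landrace. Over all genes tested, 51.8% were called for RIN in the joint model, and 3 of the 10 members were. PPARA rose by 0.83 per RIN unit (SE 0.196, edgeR FDR = 0.000728), whereas CPT1B fell by 0.47 (SE 0.126, edgeR FDR = 0.0028) and HADHA fell by 0.36 (SE 0.0919, edgeR FDR = 0.0015). PPARA and the 2 enzyme genes thus differed in sign. Without TMM factors, which moved the median RIN slope of all genes from -0.010 to 0.30, PPARA was still called (1.13), whereas CPT1B (-0.15, edgeR FDR = 0.290) and HADHA (-0.05, edgeR FDR = 0.675) were not.

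The 2 pigs with the lowest totals held several extremes. Landrace replicate 27, with a RIN of 6.6, had the lowest PPARA (0.555 CPM) and PDK4 (350 CPM) of all 41 pigs and the highest CPT1B (114 CPM) and HADHA (398 CPM) of the Landrace pigs. Duroc replicate 10, with a RIN of 7.0, had the lowest PPARA (1.46 CPM), PDK4 (538 CPM) and ACADL (30.5 CPM) of the Duroc pigs and the highest CPT1B (154 CPM) and HADHA (433 CPM) of all pigs. Without the 2 pigs with a RIN under 7, both Landrace, the PPARA slope was 0.54 per unit and still called (edgeR FDR = 0.086). Within batches the correlation of PPARA with RIN was 0.76 in batch 2, 0.49 in batch 3 and 0.72 in batch 5, given as a description of 15, 9 and 11 pigs.

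The other members were not called for RIN. ACADVL changed by -0.24 per unit (SE 0.124, edgeR FDR = 0.122). With all shared pairs given to it, whichever gene they stem from, it fell by 0.59 (edgeR FDR = 6.29e-05). The ACADVL call was also gained with batch as a number (-0.25, edgeR FDR = 0.0873) and without the 2 pigs with the lowest totals (-0.32, edgeR FDR = 0.0922). ACADL changed by 0.25 per unit (SE 0.139, edgeR FDR = 0.142) and PDK4 by 0.27 (SE 0.221, edgeR FDR = 0.324). When single pigs were left out, the PDK4 slope ran from 0.17 to 0.57 and was never called. With the slow-fibre score in the model both were called, ACADL at 0.49 (edgeR FDR = 0.0013) and PDK4 at 0.53 (edgeR FDR = 0.0654). ACADL was also called by limma (0.27, FDR = 0.0979) and with batch as a number (0.26, edgeR FDR = 0.0965). Without the 2 pigs at the ends of the slow-fibre score, ACADL was called too (0.32, edgeR FDR = 0.0414). UCP3 changed by 0.35 (SE 0.244, edgeR FDR = 0.245), and CPT2, HADHB and ACADM by -0.13, -0.10 and -0.04.

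With RIN left out of the model, the breed differences of CPT1B (-0.41, edgeR FDR = 0.114) and HADHA (-0.23, edgeR FDR = 0.229) were no longer called. RIN was on average lower in Landrace (7.84, SD 0.496, n = 28) than in Duroc (8.12, SD 0.426, n = 13). Fibre markers of both types moved with RIN, against 51.8% of all genes. Of 6 slow-fibre markers 5 fell, with TNNC1 at -0.87 per unit (edgeR FDR = 0.0026), and of 6 fast-fibre markers 3 fell and 2 rose, with TNNI2 at -0.65 (edgeR FDR = 2.77e-06), and their part in the slopes of the members was not tested.

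The central question of the study was how muscle expression relates to feed efficiency. None of the 10 genes was called for FCR in the joint model, where 0.0% of the 11146 genes tested were called by edgeR and 968 had an unadjusted p under 0.05. PPARA was the only member with an unadjusted p under 0.05, with a slope of 0.25 per 0.1 FCR (SE 0.085, p = 0.0057, edgeR FDR = 0.529). The positive slope, with more PPARA in less efficient pigs, did not pass the threshold once corrected for the number of genes. The study had itself listed PPARA in its gene interaction results, which drew on genes picked by low p-values for FCR in the same pigs. The low unadjusted p of PPARA is thus not separate support. The slope ran from 0.21 to 0.28 when pigs were left out 1 at a time, and the FDR from 0.306 to 0.772.

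In the fits within breeds, 0.0% of 11020 genes in Landrace and 0.0% of 10509 genes in Duroc were called by edgeR, and again none of the members. Unadjusted p-values under 0.05 were reached by 606 genes in Landrace, PPARA alone among the members, and by 564 genes in Duroc with no member among them. In Landrace the PPARA slope was 0.28 per 0.1 FCR (SE 0.118, p = 0.0239, edgeR FDR = 0.861), and in Duroc it was 0.11 (SE 0.107, p = 0.317, edgeR FDR = 0.827). The 2 slopes were not shown to differ, since their difference was 0.12 (SE 0.168, edgeR FDR = 0.939). Within batches the correlation of the PPARA level with FCR was 0.32 in batch 2, -0.26 in batch 3 and 0.09 in batch 5, so the sign did not hold in each batch before adjustment for breed and RIN.

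**Figure D3:**
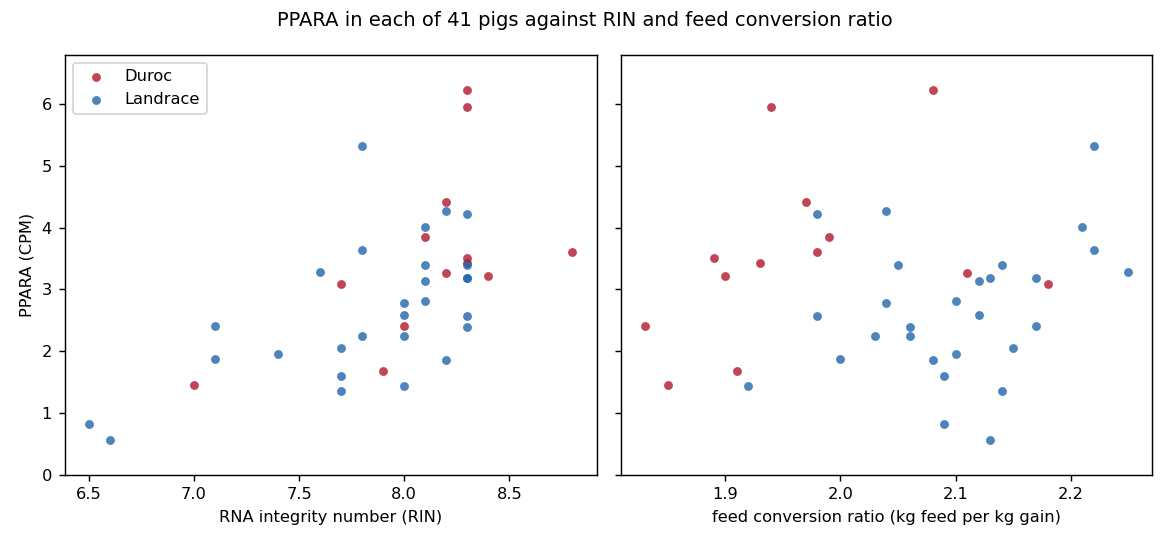
PPARA in CPM in each of the 41 pigs against RIN (left) and against FCR in kg feed per kg gain (right), with Duroc and Landrace pigs in different colours. The 3 pigs with the lowest levels, between 0.555 and 1.36 CPM, are Landrace, and the lowest has a RIN of 6.6, while no such order is seen against FCR.

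The slopes of the other members on FCR were small against their errors. Among the enzymes, ACADL had 0.11 per 0.1 FCR (SE 0.0661, p = 0.0932), HADHB 0.09 (SE 0.0562, p = 0.115), and CPT2, ACADM, CPT1B, ACADVL and HADHA lay between -0.01 and 0.07 (edgeR FDR at least 0.628 for all 7). PDK4 had the steepest negative slope, -0.17 per 0.1 FCR (SE 0.110, p = 0.141, edgeR FDR = 0.672), and UCP3 had -0.04 (SE 0.114, edgeR FDR = 0.924). The median slope of the 10 genes was 0.05, against 0.0027 over all genes tested.

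In Duroc the slopes of CPT1B, CPT2, ACADVL and HADHA lay between -0.09 and -0.07, and in Landrace between 0.04 and 0.14, each within 1.5 of its own standard errors of 0. The negative signs in Duroc rested on single pigs for 3 of them, since CPT1B turned to 0.12 without Duroc replicate 6, and CPT2 and ACADVL turned to 0.06 and 0.05 without Duroc replicate 11. The difference between the breeds in the FCR slope was called for 0.0% of genes and for none of the members, with 582 genes and no member under an unadjusted p of 0.05. HADHA came closest, with a difference of 0.15 (SE 0.0913, p = 0.115, edgeR FDR = 0.934). No member was called for an FCR term by edgeR, by DESeq2 or by limma. DESeq2 called 5 other genes for FCR in the joint model, 10 in Duroc, 2 in Landrace and 1 for the difference between breeds. The Duroc fit had 5 residual degrees of freedom and the Landrace fit 21.

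**Figure D4:**
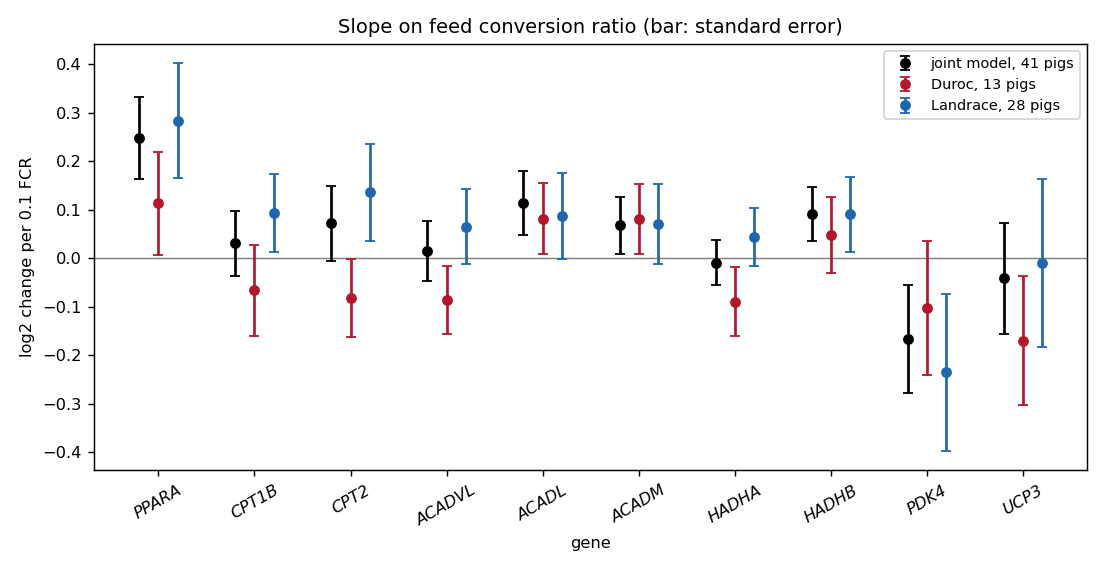
Slope of each of the 10 genes on FCR, as log2 change per 0.1 FCR, from the joint model (41 pigs) and from Duroc (13 pigs) and Landrace (28 pigs) alone, with standard errors as bars. PPARA has the highest slope in each fit and PDK4 is below 0 in all 3, and none of the slopes passed the FDR threshold. In Duroc, leaving out single pigs took PPARA down to 0.04 and PDK4 up to 0.06.

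Age at slaughter left all 10 genes uncalled, against 1.76% of all genes. The lowest FDR was 0.642, in CPT2, with a change of 0.16 per 10 days (SE 0.159). PPARA changed by 0.13 per 10 days (SE 0.182), PDK4 by -0.04 (SE 0.231) and UCP3 by -0.07 (SE 0.259). Duroc were younger than Landrace on average (147 against 155 days), so age and breed were partly confounded.

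The 7 genes of the carnitine shuttle and the oxidation cycle varied together from pig to pig. For this, RIN, age, breed and batch were regressed out of the log2 CPM, and all 45 pairs of members were compared over the 41 pigs with 100000 permutations per pair. Over all pigs the 21 pairs among the 7 genes were all positively correlated, with Pearson r from 0.50 (CPT1B with ACADL) to 0.87 (CPT2 with HADHB). For that lowest pair, r was 0.38 without the 2 pigs farthest from the median, 0.69 within Landrace and -0.07 within the 13 Duroc, and the permutation p was 0.00103 and the Benjamini-Hochberg adjusted p 0.0022, with Spearman rho at 0.49. ACADL with HADHA, at 0.57 over all pigs, was likewise near 0 within Duroc (-0.02).

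CPT2 and HADHB had a Spearman rho of 0.86 and the smallest permutation p that could be reached (1e-05), and r was 0.84 without the 2 pigs farthest from the median. Within batches 2, 3 and 5 their r was 0.92, 0.88 and 0.93, within Duroc 0.73 and within Landrace 0.91. HADHA and HADHB, which form 1 enzyme and lie next to each other on chromosome 3, had an r of 0.81 over all pigs, 0.91 in batches 2 and 3 and 0.77 in batch 5. HADHA and CPT2 reached 0.87. Pigs with much CPT2 were thus pigs with much of both trifunctional protein transcripts.

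In unadjusted levels, a pair of Landrace pigs each held the extreme of 4 of these 7 genes. Landrace replicate 8 had the highest level of all pigs in CPT2 (54.5 CPM), ACADVL (189 CPM), ACADL (115 CPM) and ACADM (272 CPM), and the lowest UCP3 (13.6 CPM). It also had the highest slow-fibre score of the 41 pigs. Landrace replicate 16 had the lowest level of all pigs in CPT1B (29.6 CPM), ACADVL (61.5 CPM), HADHA (144 CPM) and HADHB (85.6 CPM).

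PPARA itself varied mostly apart from the enzyme genes. After adjustment its r was 0.36 with ACADL (rho 0.34, permutation p = 0.0204, adjusted p = 0.0417) and 0.31 with HADHB (rho 0.35, permutation p = 0.0483, adjusted p = 0.0906). Without the 2 farthest pigs these fell to 0.26 and 0.23, and within batches 2, 3 and 5 they were 0.07, 0.69 and 0.19 for ACADL and 0.36, 0.64 and -0.11 for HADHB. With CPT1B, CPT2, ACADVL, ACADM and HADHA its r lay between 0.04 and 0.26, with adjusted p of 0.179 or more.

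PDK4 passed the adjusted threshold with ACADVL alone (r 0.33, rho 0.30, permutation p = 0.0344, adjusted p = 0.0673), and the adjusted p of rho was 0.110. UCP3 passed it with none of the 9 other genes, with r from -0.11 to 0.26 over all pigs. That range pooled batches of opposite sign. With the enzyme genes from CPT1B to HADHB, its r was 0.42 to 0.65 in batch 2 and 0.17 to 0.61 in batch 5. In batch 3, with 9 pigs, it was -0.88 to -0.30. Within Duroc it ran from 0.08 to 0.64 and within Landrace from -0.14 to 0.25. Without the 2 farthest pigs it ran from 0.04 (CPT1B) to 0.33 (ACADVL). PDK4 and UCP3 were also among the most variable members, with a coefficient of variation of 40.3% and 45.3% over all pigs, against 20.4% for ACADM and 42.4% for the sparsely counted PPARA.

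**Figure D5:**
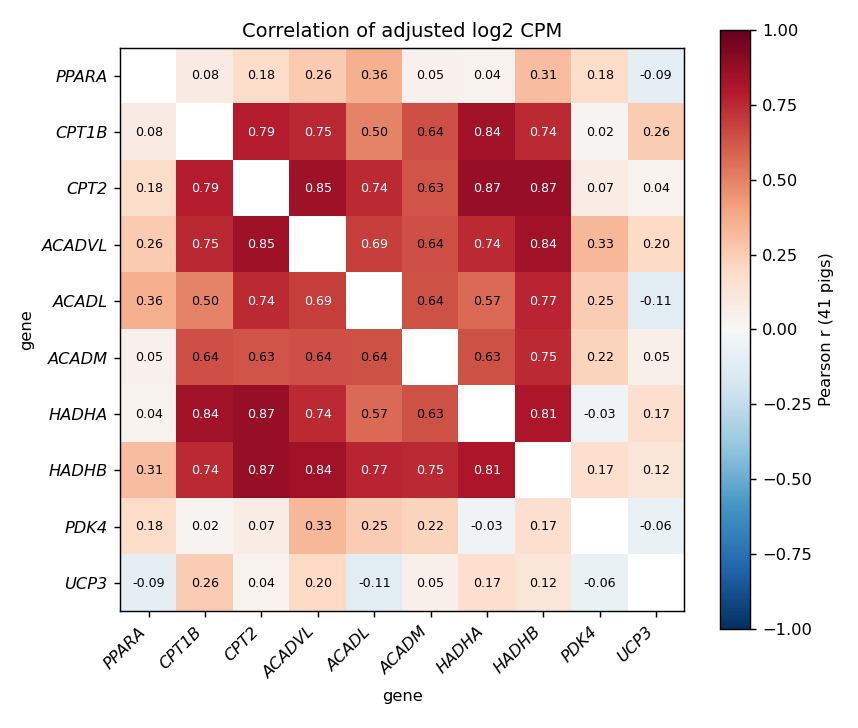
Pearson correlation over 41 pigs of log2 CPM after RIN, age, breed and batch were regressed out, for each pair of the 10 genes. The block of 7 enzyme genes from CPT1B to HADHB holds r of 0.50 to 0.87, while PPARA, PDK4 and UCP3 stay at 0.36 or below with every other gene.

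The genes most like a member were sought among 9828 genes by the same adjusted correlation, given as a description over the 41 pigs. For HADHA, 3 of the top 5 were members, CPT2 (r 0.87), CPT1B (0.84) and HADHB (0.81), followed by SLC25A34 (0.79), a mitochondrial carrier, and ICA1 (0.78). For PDK4 they were TXNIP (0.72), which restrains glucose uptake, CEBPD (0.70), CITED2 (0.69), ELL2 (0.66) and ARRDC3 (0.66), a relative of TXNIP. For PPARA they were RAD52 (0.67), FHIP1A (0.67), RAB3GAP2 (0.65), PPM1B (0.65) and MAP4 (0.64), and none of these 5 was a member or in the pathway list. The PDK4 values held at 0.63 to 0.69 without the 2 farthest pigs, and the PPARA values at 0.59 to 0.73.

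The wider pathway was followed in 64 further genes in 8 groups, of which 59 had an Ensembl symbol in the files and 56 were counted well enough to be tested. For breed, 2 were higher and 13 lower in Landrace, with a median difference of -0.12, against 33.1% of all genes called in either direction. Fatty acid uptake and activation showed 3 of 6 genes lower. SLC27A1, a fatty acid transporter, had a median of 48.6 CPM in Duroc and 29.0 CPM in Landrace (-0.93, SE 0.13, edgeR FDR = 2.51e-06). FABP3, the muscle fatty acid binding protein, had 121 and 91.7 CPM (-0.91, edgeR FDR = 0.0036), and ACSL1, which activates fatty acids to acyl-CoA, had 297 and 254 CPM (-0.67, edgeR FDR = 0.000696). These genes act before the step of CPT1B, which was lower in the same breed.

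Of 7 further PPAR-responsive and lipid genes, 3 were lower. LPL, which frees fatty acids from lipoproteins at the vessel wall, had a median of 194 CPM in Duroc and 110 CPM in Landrace (-1.32, edgeR FDR = 0.000195). ANGPTL4, an inhibitor of LPL, differed by -0.94 (edgeR FDR = 0.000115), and PLIN5, which coats lipid droplets at mitochondria, by -1.20 (SE 0.32, edgeR FDR = 0.0066). Among 11 receptors and co-regulators, ESRRA was not called (-0.45, edgeR FDR = 0.125), PPARGC1A, a coactivator of PPARA, was lower (-0.71, edgeR FDR = 0.0808) and RXRA, its heterodimer partner among the retinoid X receptors, was higher (0.27, edgeR FDR = 0.0629).

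In the matrix, ECI2 (-0.45, edgeR FDR = 0.0062) and ACAA2 (-0.41, edgeR FDR = 0.0533) were lower. ACADS, the short-chain acyl-CoA dehydrogenase, went the other way, with a median of 49.3 CPM in Duroc and 79.2 CPM in Landrace (0.64, edgeR FDR = 0.0043). The acyl-CoA dehydrogenases thus did not share 1 direction between breeds, with ACADVL lower, ACADS higher and ACADL and ACADM not called. PDHA1 (-0.38, edgeR FDR = 0.0141) and PDK2 (-0.32, edgeR FDR = 0.0754) were the 2 of 7 pyruvate dehydrogenase genes called, both lower. CS (-0.24, edgeR FDR = 0.0617) and COX4I1 (-0.32, edgeR FDR = 0.0930), of 5 genes of mitochondrial content, were lower too. None of 6 peroxisomal genes and none of the 4 other carnitine shuttle genes tested was called for breed by edgeR, with 0 of each at an unadjusted p under 0.05. The smallest p-values there belonged to MLYCD (-0.32, edgeR FDR = 0.299), CRAT (0.12, edgeR FDR = 0.405) and SLC25A20 (0.07, edgeR FDR = 0.760) of the shuttle, and to HSD17B4 (-0.14, edgeR FDR = 0.342), ACOX3 (-0.16, edgeR FDR = 0.365) and ABCD3 (-0.12, edgeR FDR = 0.530) of the peroxisome. PDP2 (-0.33, edgeR FDR = 0.258) and VDAC1 (0.11, edgeR FDR = 0.227) were not called either.

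With the endothelial score in the model, 3 of the 15 pathway calls for breed were left, SLC27A1 (-1.13, edgeR FDR = 0.000296), ANGPTL4 (-0.81, edgeR FDR = 0.0525) and ACSL1 (-0.68, edgeR FDR = 0.0570). LPL went from -1.32 to -0.69 (edgeR FDR = 0.241) and RXRA from 0.27 to -0.0065 (edgeR FDR = 0.987), while FABP3 (-0.92, edgeR FDR = 0.109), PLIN5 (-1.19, edgeR FDR = 0.155), ACADS (0.60, edgeR FDR = 0.136) and ECI2 (-0.47, edgeR FDR = 0.130) were near their size in the joint model but not called. The calls of PPARGC1A (-1.02), ACAA2 (-0.33), PDHA1 (-0.31), PDK2 (-0.33), CS (-0.28) and COX4I1 (-0.54) were lost too, at an edgeR FDR of 0.117 to 0.464. Each kept its sign.

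For FCR none of the 56 was called by edgeR, and 5 had an unadjusted p under 0.05. The lowest was ACAD9, an assembly factor of respiratory complex I, with -0.12 per 0.1 FCR (p = 0.0012, edgeR FDR = 0.448). For age 1 was called, ANGPTL4, with a rise of 0.49 per 10 days (edgeR FDR = 0.0965), a share like the 1.76% of all genes. In 7 of the alternative fits no pathway gene was called for age, with 0% to 2.12% of all genes called. The endothelial markers KDR (0.72, edgeR FDR = 0.0693) and CDH5 (0.45, edgeR FDR = 0.0965) also rose with age, and their part in the ANGPTL4 value was not tested. The other genes with the smallest p for age in their groups were PPARD, PPARGC1B, SLC27A1, ACSL1, CPT1A, SLC25A20, ETFDH, ECHS1, EHHADH, ACOX3, PDP2, PDHB, PLIN2, SDHB and VDAC1, with an edgeR FDR of 0.262 (SLC27A1) or more.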

How the data were processed

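The deposited files hold, for each pig, raw counts of read pairs per Ensembl gene without normalization. The authors removed adapters from the unstranded pairs (Trimmomatic 0.39) and let STAR 2.7.1a align them to the Sscrofa11.1 genome and count them on Ensembl 96 genes. The unstranded count column was used. FCR, RIN, age, breed and batch came from the labels, and pigs were numbered within a breed in accession order. The members and gene lists were chosen with earlier results of these data known. All members are named, and of each pathway group the 3 genes with the smallest p for breed and the 2 for RIN and age.

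Genes were filtered with filterByExpr (10 counts) and tested with the quasi-likelihood test of edgeR 4.0.16 (R 4.3.3), with TMM factors and Benjamini-Hochberg adjustment over all genes tested (FDR under 0.1). In the joint model breed, batch (a factor of 5 levels), FCR, RIN and age stood together, and each breed was also fitted alone. Slopes are per 0.1 FCR, per RIN unit and per 10 days, and a standard error is the log2 value divided by the root of the F statistic. Scores are mean z values over markers. Correlations used log2 CPM with a prior count of 2 and two-sided permutation tests. The fits were also run on simulated counts, with FCR slopes larger than those of any member and no effects of breed, RIN, age or batch. Whether slopes of the size seen here would be found was not tested. Alternatives were DESeq2 1.42.0, limma 3.58.1 with voom, other scalings, filters, covariates and sets of pigs. Depth was alike between pigs and limits the low counts of PPARA most. The symbols CD36, SLC22A5, ACACB, ECI1 and ATP5F1B of the pathway and MYH1, MYH2, MYH4, MYH7, MYLPF, TPM3, CASQ2 and VWF of the markers were not matched to an identifier and were not analysed here.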

Additional observations from a re-analysis of the deposited data

How the results depend on the processing

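No paired analysis was possible because the replicate numbers used here only follow accession order, the labels give none, and each pig belongs to 1 breed. Beside 41 refits that each left out 1 pig, 17 alternatives were run, 5 of them chosen after the data were seen (shared pairs given to the members, an endothelial score, breed with RIN and batch only, and 2 sets of pigs left out). No member was called for any FCR term or for age in any of them. Of the 10 members 4 to 6 were called for breed when 1 pig was left out, and 3 or 4 for RIN. ACADVL gained the RIN call without Duroc replicate 10 or Landrace replicate 26, and ACADL gained it in 10 of the 41 refits. The members called for breed fell to 1 with the endothelial score (6.7% of all genes called) and rose to 7 without TMM factors (37.1%). For RIN 5 members were called without TMM factors, with batch as a number and with the slow-fibre score, in place of 3. Over all genes, 63.8%, 51.6% and 48.6% were called for RIN in these fits, in place of 51.8%. Without TMM factors these were PPARA, ACADL, ACADM, PDK4 and UCP3, and the calls of CPT1B and HADHA were lost. Without TMM factors the median over all genes moved from -0.010 to 0.30 for RIN and from -0.0024 to -0.18 for breed, and the RIN slope of ACADM reversed to 0.27 (edgeR FDR = 0.0811). Without the 2 pigs at the ends of the slow-fibre score, CPT2 was not called for breed (-0.34, edgeR FDR = 0.210). The pathway genes called for breed numbered 28 without TMM factors, 3 with the endothelial score and 23 with breed, RIN and batch only, in place of 15. Over all genes, 37.1%, 6.7% and 31.9% were called for breed in these fits, in place of 33.1%. For RIN they numbered 19 without the 2 pigs with a RIN under 7 and 20 without the 2 lowest totals, in place of 32, while the share over all genes fell from 51.8% to 35.6% and 36.6%. For age they numbered 3 with batch as a number and 0 without TMM factors, without a filter, without RIN, with the endothelial score or without any of the 3 pairs of pigs, in place of 1. Over all genes, 7.3% were called for age with batch as a number and 0% to 2.12% in the fits with 0, in place of 1.76%. PPARA, at 8 to 190 pairs per pig, and the Duroc fit, at 13 pigs, limit what could be detected. The causes of these changes were not tested.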

Other observations

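Of the 56 pathway genes tested, 11 rose and 21 fell with RIN, a share near the 51.8% of all genes called in either direction. Of 6 peroxisomal genes, 5 rose, ABCD3 by 0.41 per RIN unit (edgeR FDR = 0.0018), and ACAA1, the peroxisomal thiolase, fell by 0.46 (edgeR FDR = 0.0013). In the mitochondrial matrix 1 rose and 5 fell of 10 tested, with ETFB, a subunit of the electron transfer flavoprotein, at -0.65 (edgeR FDR = 2.61e-06) and ECHS1, the short-chain hydratase, at -0.61 (edgeR FDR = 5.92e-06). COX4I1, a subunit of cytochrome c oxidase, fell by 0.94 per unit (edgeR FDR = 1.33e-08), and PPARGC1A fell by 0.83 (edgeR FDR = 0.0017), while PPARA rose by 0.83. SDHB of complex II fell by 0.41 (edgeR FDR = 5.36e-05) and RXRG fell by 0.42 (edgeR FDR = 0.0263). Of the uptake genes, ACSL4 rose by 0.59 (edgeR FDR = 3.04e-05) and SLC27A4 fell by 0.43 (edgeR FDR = 0.000453). Of the carnitine shuttle, CRAT fell by 0.32 (edgeR FDR = 0.0014) and MLYCD fell by 0.40 (edgeR FDR = 0.0498). PDP1, a pyruvate dehydrogenase phosphatase, rose by 0.66 (edgeR FDR = 0.0024) and the kinase PDK1 fell by 0.26 (edgeR FDR = 0.0549). UCP2 fell by 0.57 (edgeR FDR = 0.000286) and ANGPTL4 fell by 0.37 (edgeR FDR = 0.0142). Without the 2 pigs with the lowest totals, 20 of the 56 genes were called for RIN in place of 32, and over all genes the share fell likewise, to 36.6%.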
